A study of Arabidopsis thaliana with 8 samples.

Results

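URI (bHLH121) belongs to the basic helix-loop-helix transcription factors and is needed by Arabidopsis thaliana for its response to iron (Fe) shortage. The peaks described here are those of a root ChIP-seq experiment whose URI signal was higher in Fe-deficient than in Fe-sufficient roots. They were chosen by the authors' deposited mean concentrations alone: a peak is a member when its concentration under Fe deficiency minus that under Fe sufficiency is above 0. The deposited fold, p-value and FDR columns were not used. Of 2366 peaks, 471 were members, 1889 were lower under deficiency and 6 had equal concentrations. These 471 are 19.9% of all peaks, a share that the rule itself sets.

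The roots came from plants of the uri mutant that carry a complementing URI copy, after 72 h with Fe in sufficient or deficient supply. All libraries share this background; the sources used here do not give the promoter of the URI copy, its tag, the number of lines or the antibody, nor whether libraries of a condition come from separate plantings. Each Fe condition has 3 libraries from URI ChIP and 1 from an IgG control, and the deposited table holds 1 mean per condition over the URI libraries and no column for IgG. A concentration is read as the log2 of normalised reads, so 1 unit is a doubling, and is printed below as reads by undoing the log2. No spread between libraries comes with these means and the depth of each library is unknown, so no difference below carries an error or a test. Over all peaks the median of deficiency minus sufficiency was -0.46 (log2). The scaling between libraries is not given, so how far it moves the place of 0 was not tested. In whole roots, more URI per cell and more cells with bound URI cannot be told apart.

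In Fe-deficient roots, basic helix-loop-helix proteins of several subgroups act in a cascade that turns on the genes for Fe uptake, Fe movement through the plant and small signalling peptides, and that turns down storage. URI is an upstream member of the cascade and is present in roots with and without Fe. Proteins of this class bind short DNA elements of the E-box type, often close to the start of a gene. No genome or promoter sequence was used here, so motifs in the peaks were not analysed.

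Most members differed little between the Fe conditions, and a minority differed by a doubling or more. The difference ranged from 0.01 to 3.95 (log2), with a median of 0.37 and quartiles of 0.17 and 0.81. It was at most 0.25 in 166 members, between 0.25 and 0.5 in 120, between 0.5 and 1 in 100, and above 1 in 85. The last group is 3.59% of all peaks and 18.0% of the members. The median over members was 9.32 reads with sufficient Fe and 13.2 under deficiency. Of the members, 10 lay just 0.01 above the cut, which is the rounding step of the table, and 75 lay within 0.1 of it.

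Just above the cut were the peaks at AT1G80610 (37.8 reads with sufficient Fe and 38.1 under deficiency), AT3G56760 (26.7 and 26.9), AT1G77660 (19.0 and 19.2) and CIPK8 (14.5 and 14.6), a protein kinase gene. Just outside were peaks at AT4G18950, AT1G72840, AT5G66820 and AT2G42350, whose 17.3, 16.4, 13.4 and 12.1 reads were equal in both conditions.

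**Figure D1:**
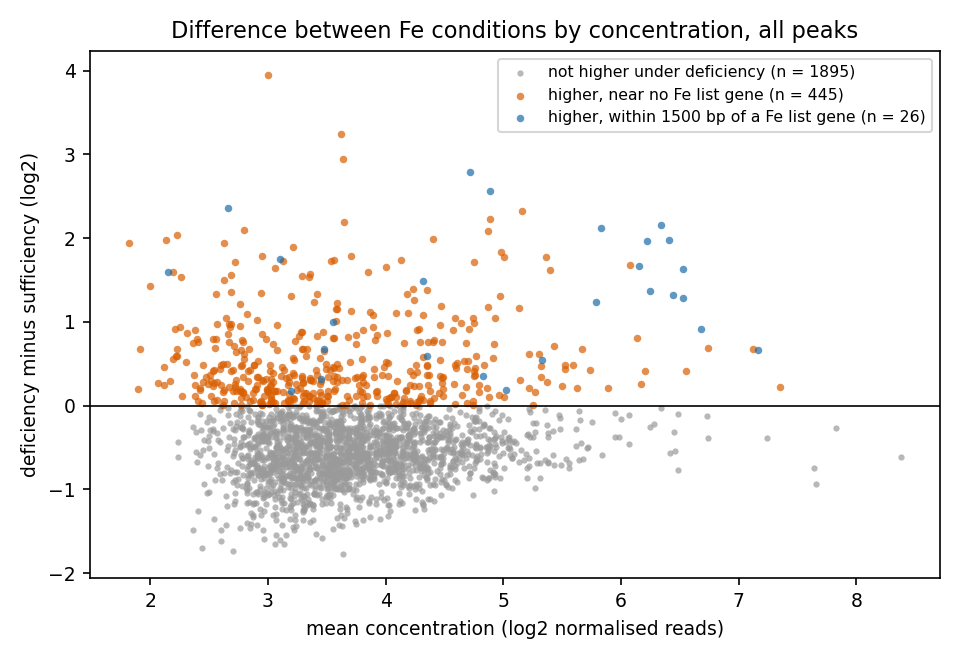
Each point is 1 of the 2366 peaks, with its mean concentration over both conditions (log2 normalised reads) on the x axis and deficiency minus sufficiency (log2) on the y axis; the line at 0 is the rule. The 445 members near no Fe list gene lie mostly low on both axes, while many of the 26 near a Fe list gene lie at high concentration.

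Members came from the whole range of concentrations, and their share was highest at its 2 ends. When all peaks were ordered by mean concentration and cut into 10 bins of near equal size, 46.0% of the lowest bin were members (109 of 237 peaks). The share was 8.44% in the sixth bin (20 of 237) and 30.4% in the highest (72 of 237). The lowest and the highest bin also had the widest spread of differences among peaks, with an SD of 0.78 and 0.74 (log2), against 0.47 to 0.62 in the bins between them. Median differences were -0.10 in the lowest bin, -0.55 in the next and -0.32 in the highest. At the weak end, concentrations were as low as 1.82 among members and 2.24 among the other peaks. How much of the share at the weak end comes from counting noise was not tested, since the table gives no values by library.

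**Figure D2:**
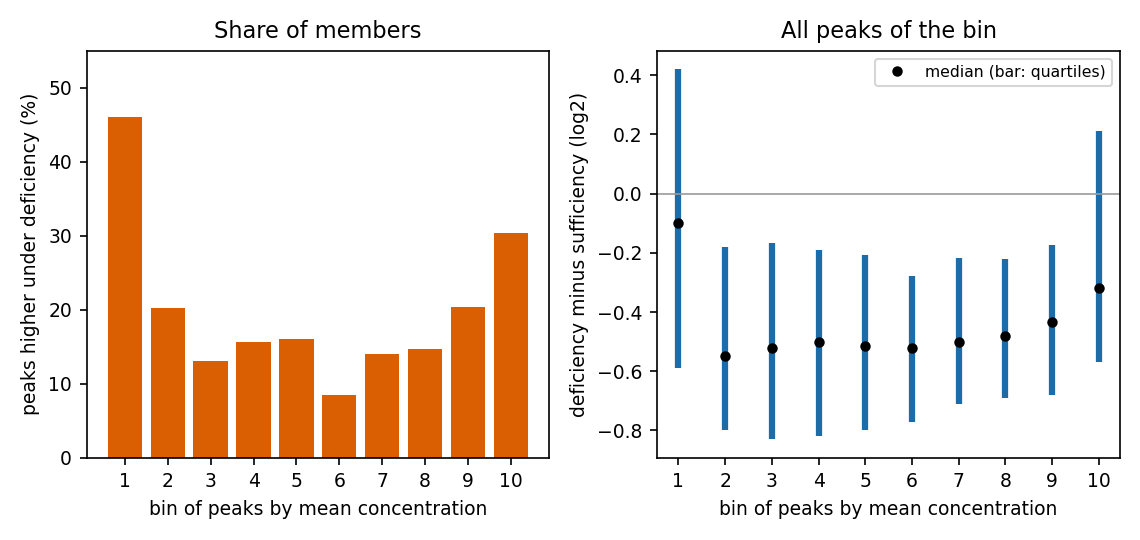
Left, the percentage of peaks that are members in each of 10 bins of all peaks by mean concentration; right, the median (point) and quartiles (bar) of deficiency minus sufficiency (log2) over all peaks of the same bin. The share is 46.0% in the lowest bin, 8.44% in the sixth and 30.4% in the highest.

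The members therefore covered a broad range of signal. Their mean concentration had a median of 3.48 (11.2 reads) with quartiles of 2.92 and 4.32, against a median of 3.62 (12.3 reads) with quartiles of 3.23 and 4.12 in the other 1895 peaks. Above 32 reads, 46 of 134 peaks were members, and under 8 reads 135 of 380 were. Width differed less, with a median of 745 bp in members and 733 bp in the others, and the members made up 20.3%, 18.8%, 17.9% and 22.6% of the peaks in 4 equal bins from the narrowest to the widest. Wider peaks collect more reads, so signal per length was also computed. It had a median of 15.4 reads per kb in members (quartiles 12.8 and 18.85) and 16.9 in the other peaks (quartiles 15.1 and 18.8). No test of these differences was made, because peaks are not replicates.

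Members lay in and beside genes. The midpoint was inside a protein-coding gene for 122 of the 471 members (25.9%) and for 338 of the 1895 other peaks (17.8%). A further 191 members (40.6%) had their midpoint outside genes but within 500 bp of one, 65 (13.8%) between 500 and 1000 bp, 59 (12.5%) between 1000 and 2000 bp and 34 (7.22%) beyond 2000 bp. The share inside genes was higher in members both above and below the median concentration. Among peaks at or above the median concentration it was 19.7% in members and 13.2% in the others, and among weaker peaks it was 30.8% and 22.8%. It did not follow the size of the difference, being 24.7% for members at most 0.25 above the cut and 25.9% for those above 1.

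**Figure D3:**
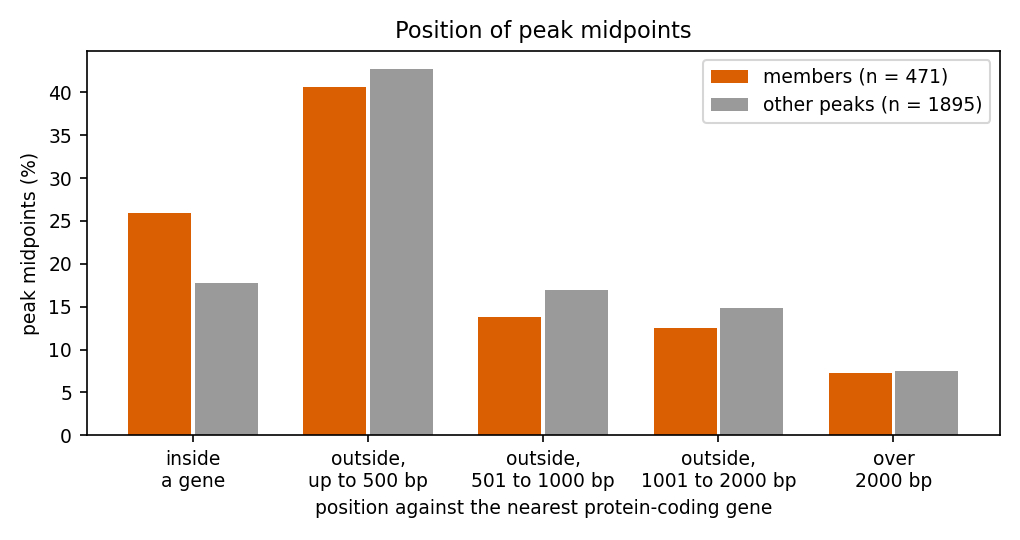
Percentage of peak midpoints in each position class against the nearest protein-coding gene, for the 471 members and the 1895 other peaks. Members have 25.9% of midpoints inside a gene and the other peaks 17.8%; beyond 2000 bp the shares are 7.22% and 7.55%.

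The surroundings of the members held more genes. Of the members, 73 (15.5%) had 3 or more protein-coding genes within 1500 bp of the peak, against 143 of the other peaks (7.55%). The shares were 17.3% and 7.88% at or above the median concentration and 14.1% and 7.19% below it. By chromosome, members were 16.7% of the peaks on chromosome 2, 18.4% on chromosome 4, 19.6% on chromosome 1, 21.3% on chromosome 5 and 22.3% on chromosome 3.

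Peaks also overlapped genes that do not code for protein, in small numbers. Transcribed pseudogenes lay under 9 peaks, of which 6 were members. Their nearest coding genes were AT2G16890, AT3G08890, DGD1 (an enzyme that makes the galactolipids of plastid membranes), AT3G24929, MYB102 and PELPK2. Transfer RNA genes lay under 12 peaks, 6 of them members, and long noncoding RNA genes under 149 peaks, 31 of them members (20.8%). None of the 4 peaks over a microRNA gene was a member. Other pseudogenes lay under 4 peaks, 2 of them members. Genes annotated as misc_RNA lay under 27 peaks (5 members), as ncRNA under 9 (2 members) and as snRNA under 5 (1 member). Over all peaks 19.9% are members, and classes with so few peaks are not called different here.

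Known Fe genes were a small part of the set. Of 56 genes of Fe homeostasis and related metal transport, listed from general knowledge, at least 1 lay within 1500 bp of 37 peaks. Of these peaks 26 were members, while 19.9% of all peaks are. The list was drawn up with earlier results of these data known, so this count is a description only. The 26 members had a median of 36.3 reads and 1466 bp, with mean reads from 4.44 to 143. Weak ones were among them, such as those at NEET (2.20 and 6.68 reads) and AT1G47400 (2.06 and 10.6). Signal went from 29.7 to 133 reads beside IRT1, the main Fe uptake transporter of roots, and from 44.9 to 139 beside BTS, an E3 ligase that restrains the response. At PYE, which encodes a repressor of Fe homeostasis genes, 111 reads with sufficient Fe stood against 176 under deficiency. The 11 peaks near a list gene that were not members included those at the ferritin genes FER1, FER3 and FER4, which store Fe in plastids. The rest lay near other list genes, of Fe uptake, coumarins or metal transport. These were AT3G13610 (difference -0.63, log2), ABCG37 (-0.27), HA2 (-0.6), NAS3 (-0.17), NRAMP6 (-1.09), IREG1 (-0.47), MTM1 (-1.03) and NRAMP1 (-0.98), which also has a member. Another 5 members lay beyond 1500 bp but within 3000 bp of a list gene, namely NAS4, FRD3, YSL1, AT1G76800 or YSL3, and AT1G76800 and YSL3 also have a member within 1500 bp.

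The 445 members near no gene of that list were weaker and narrower, with a median of 10.9 reads and 719 bp. They are the subject of the following paragraphs, where each peak is named by the protein-coding gene nearest to its midpoint. The paragraphs on gene families instead name a peak by its family gene within 1500 bp, which need not be the nearest. The 471 members had 455 different nearest genes, and 216 of these carry only a locus number in the annotation used.

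The 12 strongest of these members had ratios of deficiency to sufficiency from 1.16 to 3.20. The peak nearest to AT1G78070 (chromosome 1, 29359010 to 29362501) was the strongest and, at 3491 bp, the widest of all members; it held 151 reads with sufficient Fe and 176 under deficiency, or 46.7 reads per kb. A second peak of the same gene was lower under deficiency, by 0.54 (log2). The peak over AT5G05250 (chromosome 5, 1557226 to 1559520) held 107 and 171 reads. It was narrower but denser, with 60.6 reads per kb, and has CYP79A2, a cytochrome P450 gene, within 1500 bp. Next came the peak beside AT3G17770 (chromosome 3, 6085474 to 6087458), with 81.6 and 132 reads.

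RSH2 and PGR5-LIKE A, both known for plastid functions, were also among the 12 strongest. Beside RSH2, whose product handles the plastid alarmone ppGpp, the peak of 2892 bp (chromosome 3, 4653751 to 4656643) held 80.4 reads with sufficient Fe and 107 under deficiency. PGR5-LIKE A, or PGRL1A, acts in cyclic electron flow around photosystem I; its peak (chromosome 4, 12005869 to 12007430) went from 51.3 to 89.9 reads, a ratio of 1.75. The peak of FED A, a ferredoxin gene (chromosome 1, 22443511 to 22445130), held 17.9 and 40.5 reads. FED A does not fall under the naming rule and was chosen after its values were seen, but its peak also lies within 1500 bp of SNRK2.10, which does. IRT3, a metal transporter gene that the Fe list does not hold, also lies within 1500 bp of this peak and is nearest to a separate member (7.62 and 9.71 reads).

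Other named genes of the 12 strongest encode regulators. LBD41, a LOB-domain transcription factor gene, had 63.1 and 83.9 reads at its stronger peak (chromosome 3, 537466 to 538980). BRG3, a RING-type E3 ligase gene related to BOI, had 65.3 and 78.2 reads (chromosome 3, 4123267 to 4126394), spread over 3127 bp at 23.0 reads per kb. A second BRG3 peak, of concentration 6.07 against 6.17 for this member, had a difference of -0.11 (log2) and was not a member. SZF1, which encodes a salt-induced zinc finger protein, had 54.9 and 63.6 reads. The peaks nearest to AT3G62260, AT5G18661 and AT1G69485 held 45.9, 39.4 and 45.9 reads with sufficient Fe and 61.4, 62.7 and 53.1 under deficiency.

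NAS4, a nicotianamine synthase gene whose product makes a metal chelator, was the nearest gene to the one remaining peak of these 12 (chromosome 1, 21133195 to 21134839). Its 32.2 and 103 reads gave a ratio of 3.20, while ratios in the other 11 ran from 1.16 to 1.75. Its midpoint lay over 2000 bp from the gene. No part of the peak came within the 1500 bp window of the Fe list, so it was not taken there.

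The largest difference of all members was 3.95 (log2), at a peak nearest to AT5G22120 (chromosome 5, 7336336 to 7337100) with 0.973 and 15.0 reads. It lies below the median concentration of all peaks, so the naming rule does not take it, and it was chosen after its values were seen. Among members near no Fe list gene and at or above the median concentration, 12 peaks led by difference, and none of them was among the 12 strongest. The first, nearest to AT1G13610 with AT1G13609 also within 1500 bp (chromosome 1, 4663196 to 4664028), rested on 2.36 reads with sufficient Fe and 22.3 under deficiency. That over AT3G55860 (chromosome 3, 20729219 to 20729992) had 2.87 and 22.0 reads. Both were close to the median concentration and weak in the Fe-sufficient mean, so a read more or less there would change their ratios of 9.45 and 7.67 a good deal.

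Peaks with more reads in both conditions followed. AT2G14247 (chromosome 2, 6033350 to 6034669) had 11.96 and 59.7 reads. IGMT5, an O-methyltransferase of indole glucosinolates, was nearest to a peak over 2000 bp away (chromosome 1, 28825482 to 28826490) with 10.4 and 48.8 reads; AT1G76800 of the Fe list lies within 3000 bp of it. CDI, annotated as induced by cadmium, had 11.2 and 47.5 reads (chromosome 1, 24138930 to 24140037). AT5G25840 had 18.6 and 63.6 reads (chromosome 5, 9009218 to 9010550).

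The other 6 of these 12 were more varied in place. RPL16A, a ribosomal protein gene, held its peak within the gene (chromosome 2, 17792391 to 17793667), with 14.6 and 49.9 reads. So did AT3G27590, with 13.8 and 49.2 reads over 2310 bp at a low density of 13.7 reads per kb, and AT5G51010, with 8.06 and 26.9 reads. WRKY12, a transcription factor gene of the WRKY family, had 5.86 and 20.3 reads between 1000 and 2000 bp from its nearer end. The peaks nearest to AT3G01345 and AT5G53420 had 8.51 and 4.50 reads with sufficient Fe and 33.8 and 20.5 under deficiency.

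**Figure D4:**
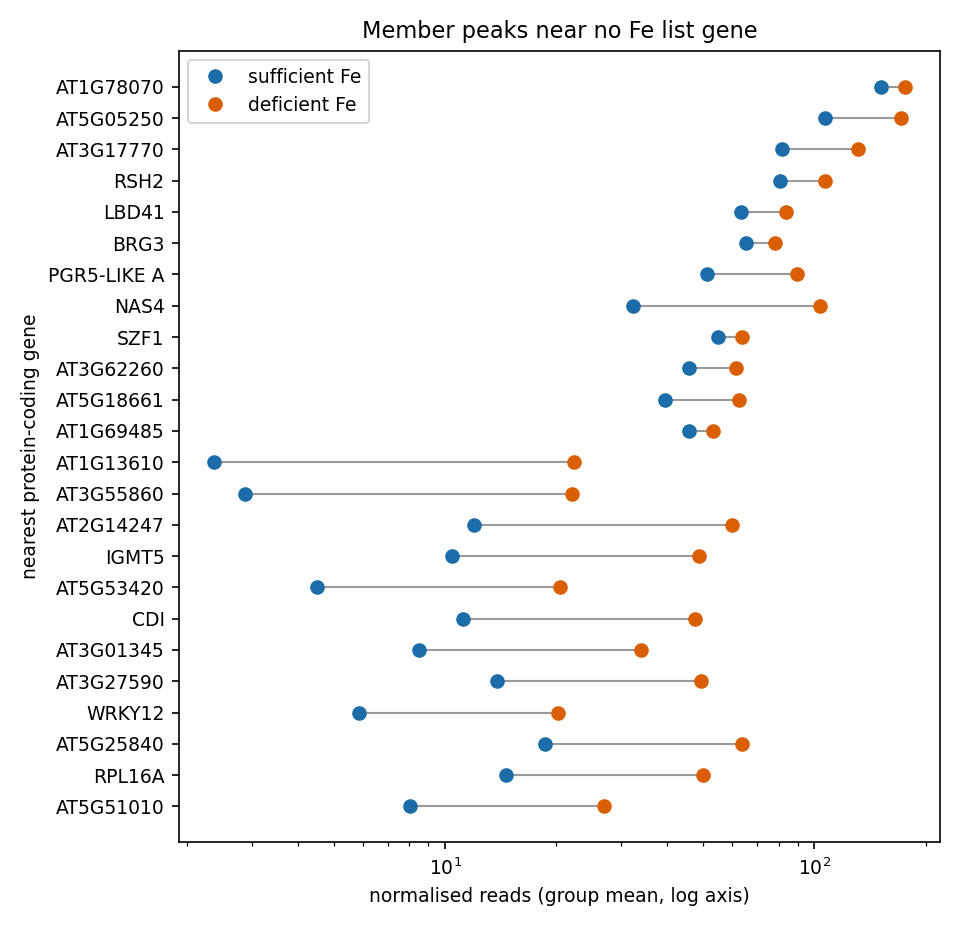
Normalised reads (log axis, group means) with sufficient and deficient Fe for 24 members near no Fe list gene: from the top, the 12 of highest mean concentration and then the 12 with the largest difference among those at or above the median concentration of all peaks. The upper 12 reach from 151 and 176 reads at AT1G78070 down to 45.9 and 53.1 at AT1G69485, and the lower 12 have longer lines from lower starting points.

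At the weak end, members held few reads in both conditions. The 5 of lowest concentration, at AT3G27410, AT2G24580, AT5G23350, AT1G19740 and RHS6, a gene named for root hairs, had 1.45, 3.48, 2.89, 2.16 and 3.81 reads with sufficient Fe. Under deficiency they had 5.58, 4.0, 4.63, 5.82 and 4.59 reads. The narrowest members were 320 bp (nearest to AtRZ-1c, with 5.13 and 6.15 reads), 346 bp (AT2G24580) and 364 bp (AT4G03140, with 3.61 and 5.78 reads). Differences at this level amount to a few reads.

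A few members lay far from any protein-coding gene. The 5 with the most distant midpoints, all beyond 2000 bp, were nearest to AT5G33370, AT1G38131, GPAT6, HB-2 and MCT1. The HB-2 peak (chromosome 4, 9443154 to 9444524) was the only one of these with a ratio above 2, at 10.3 and 27.1 reads. HB-2 encodes a homeobox protein of the shade response. The same gene was nearest to a second member with a difference of 0.09 and to another peak that was lower under deficiency by 0.95 (log2). The remaining 4 held 5.32, 7.41, 10.3 and 16.9 reads with sufficient Fe and 6.23, 8.51, 14.0 and 17.1 under deficiency.

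Families of regulators were then counted by gene symbol, with all genes within 1500 bp of a peak; 19.9% of all peaks are members, and the shares are read against that. For WRKY genes 3 of 38 peaks were members (7.89%), for bZIP genes 1 of 13, for heat shock factor genes 1 of 12, and for aquaporin genes 0 of 11. For NAC genes the count was 4 of 20, for homeobox genes 4 of 20, for ERF and DREB genes 4 of 19 and for auxin genes 4 of 22, all near the background. It was 6 of 18 for MYB genes, with 2 of the 6 at MYB72 and MYB10 of the Fe list. It was 4 of 12 for LBD genes, 7 of 30 for cytochrome P450 genes and 3 of 9 for plant U-box ligase genes. For genes of the calcium-sensor and SnRK kinase families, not all of them kinases, it was 7 of 24 (1 of the 7 near a Fe list gene). With so few peaks each, no family is called different here. Counting by symbol misses genes of a family that carry other names. For bHLH genes, 19 genes matched by symbol, and 5 of 7 peaks were members, all 5 at genes of the Fe list. Helix-loop-helix genes under other names, such as the BS1 gene below, were not in this count.

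The remaining families gave at most 2 members each. The count was 1 of 5 peaks for calmodulin-like genes (CML38, with 20.8 and 30.1 reads), 1 of 5 for ribosomal protein genes, 1 of 6 for JAZ genes, 2 of 11 for glycosyltransferase genes and 1 of 8 for clock genes. Glutathione transferase and nitrate transporter genes each had 4 peaks, none of them a member.

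Within the families the members were mostly modest. WRKY59 had 18.0 reads with sufficient Fe and 35.8 under deficiency, close to a doubling, while WRKY13 had 26.2 and 27.3. At NAC084 the pair of adjacent members had 19.8 and 25.1 reads at the stronger peak and 7.57 and 8.46 at the weaker, and NAC3 had 10.9 and 11.2. ERF4, a repressor of ethylene responses, had members of 37.3 and 45.3 reads and of 10.7 and 12.04 reads, beside a stronger peak of concentration 6.46 that was lower under deficiency by 0.54 (log2). RAP2.4 had 16.0 and 17.1 reads.

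Of the MYB members near no Fe list gene, MYB102, MYB1 and MYB74 had 31.1, 18.1 and 17.6 reads with sufficient Fe and 33.4, 18.8 and 17.9 under deficiency, so that none of these MYB peaks differed by more than a few reads. LBD37, a regulator of nitrogen responses, had 20.5 and 21.0 reads at its only member among 4 peaks, while the others were lower under deficiency by 0.31 to 0.36 (log2). Homeobox members within 1500 bp of their gene were weak, with 9.85 and 10.9 reads at HAT2, 5.54 and 7.36 at HB20 and 4.96 and 5.74 at WOX13. The HB-2 members given above lie farther from their gene and are not in this count. The stronger of them had 10.3 and 27.1 reads. In the auxin group, ARF18 had 21.9 and 26.2 reads, SAUR15 had 6.15 and 8.22, and ARF11, an auxin response factor gene, went from 4.06 to 13.5.

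Among the enzyme genes, CYP81F4 had 18.1 reads with sufficient Fe and 34.3 under deficiency. Like IGMT5, it acts on indole glucosinolates, sulfur-rich defence compounds. The related genes IGMT1, IGMT2 and IGMT3 were nearest to peaks with differences of -0.82, -0.7 and -1.09 (log2). IGMT4 was nearest to a member with 0.35, which also lies near a Fe list gene. These genes did not share a direction. CYP71A16 had 13.5 and 14.5 reads. Of the kinase genes, SNRK2.10 shares the FED A peak given above, CIPK2 had 15.8 and 16.3 reads and CIPK8 lay at the cut. The U-box ligase genes PUB19, PUB18 and PUB22, which act in abscisic acid and defence signalling, had 16.7, 8.69 and 5.54 reads with sufficient Fe and 22.0, 13.6 and 6.59 under deficiency.

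Members had a member as nearest other peak more often than the other peaks did, by a margin that depended on the cut. The nearest other peak was itself a member for 142 of 471 members (30.1%) and for 294 of the 1895 other peaks (15.5%). With midpoints up to 2000 bp apart, it was a member for 39 of 75 members (52.0%) and for 35 of 424 other peaks (8.25%). Between 2000 and 5000 bp the shares were 41.1% and 12.8%, and between 5000 and 20000 bp they were 20.4% and 18.1%. With the cut moved to the median difference of all peaks, the shares at any distance were 51.4% and 46.7%; with a cut of 0.5 (log2) they were 11.4% and 6.60%, and with a cut of 1 they were 9.41% and 3.02%. Pairs of neighbours are counted from both sides, and close peaks may share reads or fragments. The part of shared fragments in this pattern was not tested.

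**Figure D5:**
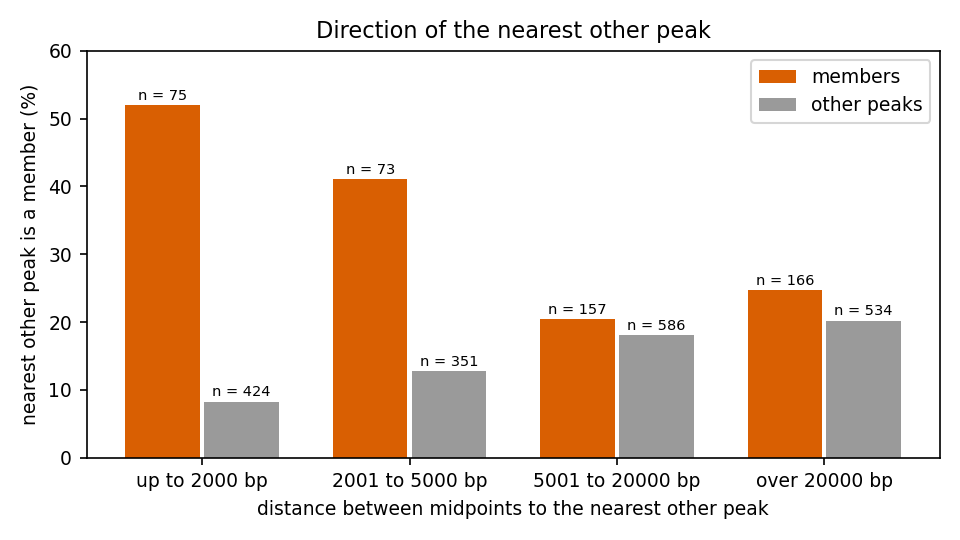
Percentage of peaks whose nearest other peak is a member, by the distance between midpoints, for members and for the other peaks; n is the number of peaks in each bar. The bars stand at 52.0% and 8.25% up to 2000 bp and at 20.4% and 18.1% between 5000 and 20000 bp.

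Adjacent members formed runs of up to 5 peaks. Of the members, 270 had no member as the next peak on either side, 112 were in 56 pairs, 60 in 20 runs of 3, 24 in 6 runs of 4 and 5 in 1 run. The run of 5 spanned 115.1 kb of chromosome 1 (27981112 to 28096189). It held a strong peak at each end, nearest to AT1G74450 (40.2 and 56.1 reads) and AT1G74780 (42.5 and 110 reads), the latter within 1500 bp of AT1G74770 of the Fe list. In between were weak peaks at AT1G74490 (4.50 and 8.17 reads), BS1, a helix-loop-helix gene of brassinosteroid signalling (10.6 and 12.9), and AT1G74510 (7.16 and 7.52).

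Runs of 4 differed in how tightly they were packed; the naming rule takes 5 of the 6. On chromosome 5, 4 members nearest to AT5G02530, AT5G02580 (with 2 peaks) and AT5G02680 spanned 43.1 kb, with differences of 0.99, 0.21, 1.19 and 1.24 (log2). Another 4 on the same chromosome, at AT5G66580, AT5G66600, DAR6 and AT5G66631, spanned 27.1 kb, with differences of 0.07, 0.28, 0.35 and 0.90. Near TBP1, AT5G13980 and NAC084 the differences were 0.13, 0.25, 0.34 and 0.16 over 58.8 kb. The run at AT1G80610, AT1G80620 and CCR2, a lignin pathway gene, covered 70.3 kb with differences from 0.01 to 0.71. Its CCR2 peak lies within 1500 bp of NRAMP1 of the Fe list. The longest spanned 241.3 kb, from tny past AT5G25840 to AT5G26290. By definition, a run holds no peak that is not a member. The sixth run of 4, outside the rule, was nearest to AT1G76728, IGMT5 (with 2 peaks) and AT1G76800 of the Fe list (chromosome 1, 28802433 to 28829740), with differences of 0.24, 0.32, 2.23 and 1.0.

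Some genes had more than 1 peak, and these did not always move alike. Of the 455 nearest genes, 16 had 2 members and 46 were also nearest to a peak that was not a member. The 4 peaks of ORG1, a gene named for its response to the factor OBP3, had differences of 1.31, -0.79, 0.24 and -0.42 (log2). The pair at TSO2, which encodes a ribonucleotide reductase subunit, had 0.35 and 1.62, and that at DOF2, a zinc finger factor gene, 1.57 and 0.68. The pair at SHOT1 had 0.94 and 0.52, and that at RR3, a cytokinin response regulator gene, 0.44 and 0.09. GRF8, a 14-3-3 protein gene, had one peak at 2.10 and another at -1.05. These genes were chosen after their values were seen.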

How the data were processed

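The 8 libraries were grouped by their titles. Per the submitters' processing notes, the authors worked with TAIR10 and used DiffBind, MACS2, bedtools 2.26.0, Bowtie 1.2.2, Picard 2.4.1, SAMtools 1.3.1 and Trimmomatic 0.33; the sources used here do not give settings, scaling between libraries or how IgG entered. The authors deposited 1 table of log2 concentrations per peak, a log2 fold and a p-value and FDR per peak; the last 3 were not used. That the scale is log2 was checked by averaging both conditions after undoing it, which returned the mean concentration within 0.0093. Differences were computed from concentrations rounded to 0.01.

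Peak coordinates are as deposited. Genes came from an NCBI RefSeq table (TAIR10.1), used for names and neighbours, with 27444 protein-coding genes and no strand. The share of midpoints inside these genes was 19.4%, and 38.9% and 37.5% after shifts of -500 bp and 500 bp. A gene was near a peak when, widened by 1500 bp on both sides, it overlapped it. Annotation steps were tested on simulated data (Python 3.11.15, pandas 2.3.3, numpy 2.4.6).

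The members, gene lists and families were chosen with earlier results of these data known. Named, outside the Fe list, were the 12 strongest members, the 12 largest differences at or above the median concentration, the 5 widest and 3 narrowest, the 5 farthest from genes, the 5 weakest, 4 on each side of the cut, up to 3 per family with 3 or more members and 6 runs. Others were chosen after seeing values. Planned counts of promoter motifs needed sequence and were not run. No test was made: the table has no values by library and peaks are not replicates.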

Additional observations from a re-analysis of the deposited data

How the results depend on the processing

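No paired analysis was possible because the table holds 1 mean per condition and no value by library, so no library could be left out either. Shares counted as moved when outside the 95% Wilson interval of the main share (counting error only), and counts and medians when they moved by over 1.5 times. Of 42 alternative values over 7 results, 28 did not move. A cut of 0.5 (log2) left 185 members, of which 11.4% had a neighbour past the same cut (6.60% of other peaks). A cut of 1 left 85, with 16 near Fe list genes and 9.41% with such a neighbour (3.02% of other peaks). Cutting at the median difference of all peaks (-0.46) gave 1175 members, and 51.4% had a member as nearest other peak (46.7% of other peaks); 23.5% lay inside a gene, against 15.4%. Keeping peaks at or above the median concentration left 208 members, with a median of 1130 bp and a concentration of 4.39, of which 19.7% lay inside a gene. The share outside genes was 40.6% with a window of 500 bp and 66.9% with 2000 bp in place of 1000 bp, by construction. Among pairs within 5000 bp, 46.6% of members had a member as neighbour. Leaving out peaks near Fe list genes, chosen after seeing the data, left 445 members, 25.2% inside a gene and 29.4% with a member as neighbour. The depth of each library is unknown.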
